A study of Mus musculus with 25 samples.

Results

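The lipid droplet coat and lipolysis were followed through 10 genes in mouse liver and liver tumors: *Cidea*, *Cideb*, *Cidec*, *Plin2*, *Plin3*, *Plin4*, *Plin5*, *Pnpla2*, *Abhd5* and *G0s2*. They were chosen by symbol, each symbol matched 1 gene identifier, and they make up 10 of the 48795 genes in the tables. Lipid droplets are stores of triacylglycerol and sterol esters under a single phospholipid layer. Perilipins coat that layer and govern how lipases reach the fat, CIDE proteins gather where droplets touch and pass lipid from the smaller to the larger droplet, and adipose triglyceride lipase (ATGL) releases the first fatty acid from triacylglycerol, with 1 protein that switches it on and 1 that blocks it. In liver the droplet coat is known to change with feeding and with fat accumulation.

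Poly-A RNA from male mice of the inbred C57BL/6J strain gave 25 libraries in 5 groups. Untreated liver came from mice on the control diet (nonDEN L-CD, n = 3) or on the western diet (nonDEN L-WD, n = 4). The other mice received diethylnitrosamine (DEN), a carcinogen that hepatocytes activate, at 25 mg/kg into the peritoneum at 2 weeks of age, and were sampled as control-diet liver (DEN L-CD, n = 4) or, after western diet, as peritumoral liver (DEN PT-WD, n = 8) and as tumors cut away from it (DEN T-WD, n = 6). All diets began at weaning and the tissue was taken at 36 weeks, or up to 39 weeks by the supplementary legends. DEN-treated liver on the western diet was therefore sampled only beside tumors, so that in each comparison with DEN PT-WD the diet or DEN and the position beside a tumor cannot be told apart. The labels do not say which libraries share a mouse.

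The libraries held between 21530083 and 38074411 expected counts, and all 10 genes passed the filter on low counts. Gene positions are those of GRCm38. Between groups, each gene is given as its normalized count, the expected count scaled to a common library size. Between genes it is given in TPM, the length-corrected share of transcripts. A gene was called where edgeR's quasi-likelihood test gave a Benjamini-Hochberg adjusted p of at most 0.05 over 15625 genes and the change was at least 2-fold, and "rose" or "fell" marks an adjusted p of at most 0.05. The hepatocyte marker *Alb* was lowest at 23227 TPM in DEN PT-WD replicate 7 and at 21879 TPM in DEN T-WD replicate 5, against at least 35092 TPM in the other 23 libraries, and these libraries also stood apart for several droplet genes. Bulk RNA cannot separate fewer cells of a type from less RNA per cell.

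*Plin4*, *Plin5* and *Plin3* lie on the same strand of chromosome 17, with 1797 bases between *Plin4* and *Plin5* and 159879 bases between *Plin5* and *Plin3*. *Plin4* and *Plin5* are shown first because these neighbors were called in opposite directions in DEN PT-WD against nonDEN L-CD, although both fell in tumors against peritumoral liver, and *Plin2* because it was the most abundant of the 10 transcripts. Each window runs from 250 bases before to 50 bases after a RefSeq gene start (GRCm38.p6), and capitals mark matches on either strand. The searched letters were TATAAA and the related form of the TATA box TATAAG, together with the E-box CACGTG. The half-site that many nuclear receptors bind, AGGTCA, was searched as well, and no match of 1 motif overlapped another. The windows were chr17:56109733-56110032 for *Plin4*, chr17:56117499-56117798 for the upstream of 2 *Plin5* starts and chr4:86670010-86670309 for *Plin2*, all on the minus strand.
Plin4: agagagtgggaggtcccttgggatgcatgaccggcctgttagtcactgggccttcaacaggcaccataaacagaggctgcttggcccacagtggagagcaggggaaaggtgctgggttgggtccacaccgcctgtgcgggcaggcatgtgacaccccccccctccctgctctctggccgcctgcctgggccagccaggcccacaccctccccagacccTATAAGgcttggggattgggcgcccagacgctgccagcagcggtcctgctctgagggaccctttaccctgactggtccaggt
Plin5: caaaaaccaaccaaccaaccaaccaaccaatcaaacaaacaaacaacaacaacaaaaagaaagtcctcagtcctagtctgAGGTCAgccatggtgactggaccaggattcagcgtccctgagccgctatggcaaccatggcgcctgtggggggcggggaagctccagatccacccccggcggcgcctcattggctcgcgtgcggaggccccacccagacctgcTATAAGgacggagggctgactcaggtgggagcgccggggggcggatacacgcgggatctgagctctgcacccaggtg
Plin2: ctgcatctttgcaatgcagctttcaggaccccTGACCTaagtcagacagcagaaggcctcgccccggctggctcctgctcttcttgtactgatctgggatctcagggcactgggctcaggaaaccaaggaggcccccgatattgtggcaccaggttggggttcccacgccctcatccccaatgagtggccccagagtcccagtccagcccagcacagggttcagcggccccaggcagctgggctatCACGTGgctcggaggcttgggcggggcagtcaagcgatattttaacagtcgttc

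The *Plin4* and *Plin5* windows each held TATAAG, 32 and 27 bases before the start, and 7.43% of 32544 promoters in the RefSeq table hold it on either strand. *Plin5* also held AGGTCA 170 bases before this start and 14 bases after its other start. *Plin2* held CACGTG 4 bases before the start, a motif of 7.17% of promoters, and the reverse of AGGTCA 218 bases before it. AGGTCA was found in 16.2% of all promoters and TATAAA in 13.6%. Of the 9 genes with a window in that table, *Abhd5* held the reverse of AGGTCA 69 bases before its start, *Cideb* held TATAAA 172 bases before it, and neither window of *Cidec* nor those of *G0s2*, *Plin3* and *Pnpla2* held any of these letters.

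**Figure D1:**
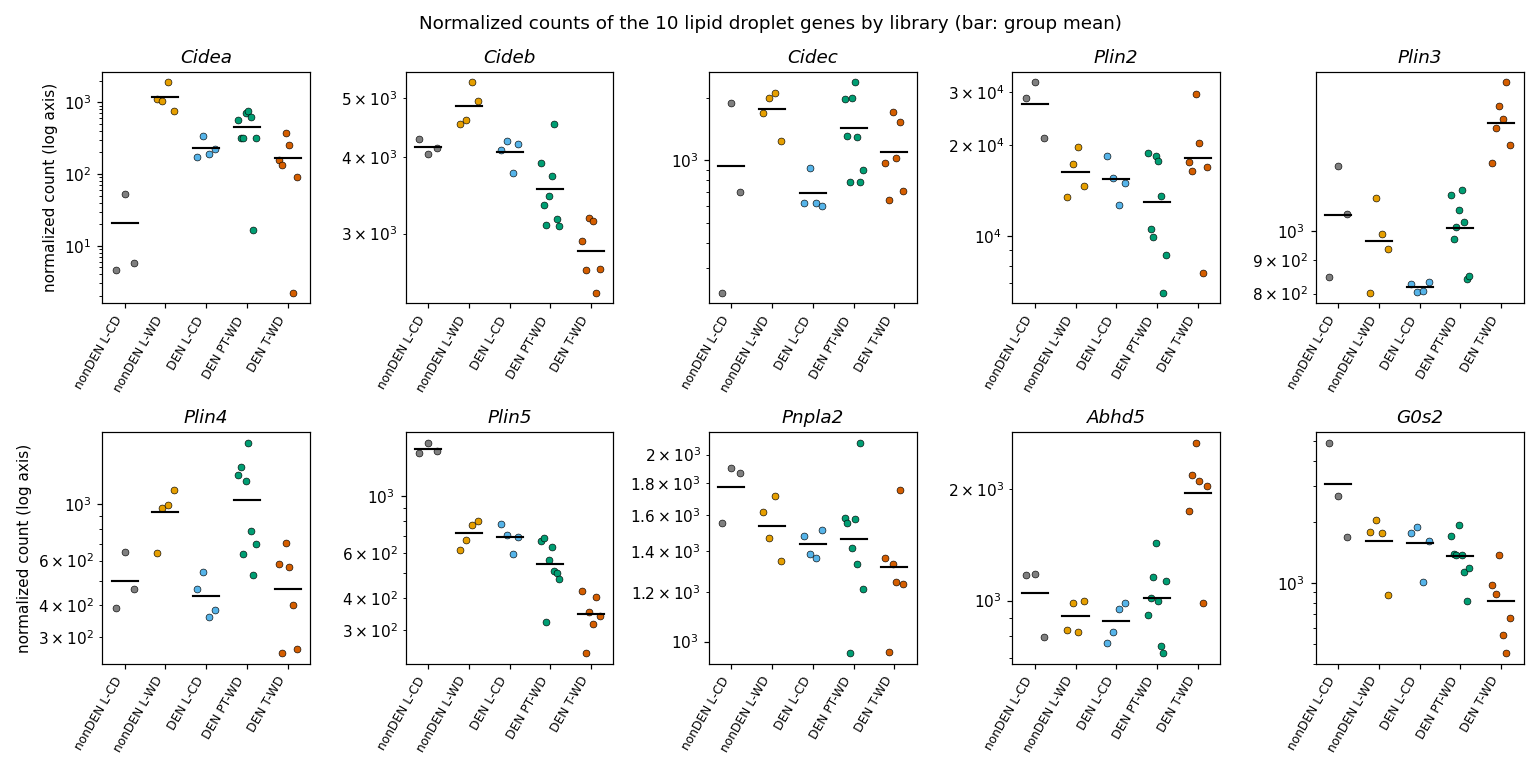
Normalized count of each of the 10 genes in the 25 libraries, on log axes that differ between panels, with the group mean as a bar. *Cidea* is lowest in nonDEN L-CD apart from 1 library each of DEN PT-WD and DEN T-WD, *Plin5* is highest in nonDEN L-CD, and *Plin3* is highest in DEN T-WD.

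CIDE family. *Cidea* (chr18:67343604-67367785, plus strand), a CIDE protein abundant in brown fat that appears in fatty liver, had by far the widest range. In nonDEN L-CD its normalized counts were 4.68, 52.9 and 5.73, resting on as few as 4 expected counts. Western-diet liver without DEN had 1115, 1044, 1888 and 755, and DEN L-CD had 171, 334, 193 and 226. In either group every library lay above all 3 libraries of nonDEN L-CD, and the nonDEN L-WD libraries also lay above all 4 of DEN L-CD.

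In peritumoral liver the normalized count of *Cidea* had a lowest value of 16.9, a median of 445 and a highest value of 749. Tumors had 2.21, 145 and 375. The lowest value of each group came from the library that was also lowest in *Alb*, and every DEN PT-WD library lay below every nonDEN L-WD library.

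*Cideb* (chr14:55754050-55758458, minus strand), the CIDE protein of healthy hepatocytes with a part in lipoprotein assembly, stayed within narrow limits. Its normalized counts were 4276, 4045 and 4141 in nonDEN L-CD, 4537, 4605, 5300.1 and 4943 after western diet alone and 4107, 4251, 3773 and 4210.0 after DEN alone. Peritumoral liver had its lowest, median and highest count at 3091, 3400.3 and 4530.1, and tumors at 2400.1, 2768 and 3176. The nonDEN L-WD libraries lay above all libraries of the other 4 groups. Part of this gene overlaps *Nop9* on the other strand, whose transcripts hold 70.2% of the 50-base words of *Cideb*, and with the strand of counting unstated the reads of the pair may not be fully separated.

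*Cidec* (chr6:113424634-113435760, minus strand), which enlarges droplets in adipocytes and in fatty liver, varied within groups as much as between them. In nonDEN L-CD its normalized counts were 228, 1891 and 701. Western-diet liver without DEN had 1693, 1996, 2129.5 and 1248, and DEN L-CD had 619, 921, 624 and 603. Replicate 2 of nonDEN L-CD, which also had the highest *Cidea* of its group, lay among the western-diet libraries. In peritumoral liver *Cidec* ranged from 788 to 2385 with a median of 1309.7, and in tumors from 642 to 1709 with a median of 999.

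The makeup of the CIDE family is given per group as shares of its summed TPM, which were not tested between groups. *Cidea* made up 0.397% ± 0.486 (SD, n = 3) of the summed CIDE TPM in nonDEN L-CD but 16.02% ± 4.16 (n = 4) after western diet. It made up 4.85% ± 1.16 (n = 4) in DEN L-CD, 8.37% ± 3.73 (n = 8) in peritumoral liver and 4.201% ± 2.67 (n = 6) in tumors. *Cideb* remained the largest CIDE transcript in every group, from 63.8% ± 6.09 in nonDEN L-WD to 84.3% ± 13.1 in nonDEN L-CD. The summed CIDE level was 195.5 ± 36.5 TPM in nonDEN L-CD, against 327 ± 61.0 TPM after western diet.

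Perilipins. *Plin2* (chr4:86648386-86670060, minus strand), the coat protein of hepatocyte droplets that is stabilized by fat, was the most abundant of the 10 transcripts in every group, at 701 ± 170 TPM (SD, n = 3) in nonDEN L-CD and 406 ± 52.3 TPM (n = 4) in DEN L-CD. Its normalized counts were 28656, 32275 and 21159.9 in nonDEN L-CD, 13539, 17327, 19729.6 and 14678 after western diet alone and 18497, 15582, 12667 and 15007 after DEN alone. Peritumoral libraries had a lowest, median and highest count of 6509, 12082 and 18799, and tumors of 7562, 17332 and 29654. All libraries of nonDEN L-WD, DEN L-CD and DEN PT-WD lay below the 3 libraries of nonDEN L-CD, and the lowest values of DEN PT-WD and DEN T-WD again belonged to the libraries lowest in *Alb*.

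*Plin5* (chr17:56111601-56117596, minus strand), which ties droplets to mitochondria and restrains lipolysis in oxidative tissues, gave the clearest separation. Its normalized counts were 1469, 1616 and 1501 in nonDEN L-CD, 618, 674, 775 and 803 after western diet alone and 779.6, 709, 597 and 696 after DEN alone. Peritumoral libraries had a lowest, median and highest count of 323, 538 and 690.1, and tumors of 244, 348 and 428. The 3 libraries of nonDEN L-CD lay above all 22 others, and the DEN T-WD libraries lay below all libraries of nonDEN L-WD and DEN L-CD.

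*Plin4* (chr17:56100591-56109803, minus strand), a coat protein of nascent droplets best known from adipocytes and muscle, was the scarcest perilipin. Its normalized counts were 388, 651 and 462 in nonDEN L-CD, 645, 968, 997 and 1136 after western diet alone and 462, 539, 359 and 385 after DEN alone. Peritumoral libraries had a lowest, median and highest count of 525.8, 1010.0 and 1750.1, and tumors of 259, 482 and 706. All nonDEN L-WD libraries lay above all DEN L-CD libraries, whereas DEN PT-WD and DEN T-WD overlapped.

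*Plin3* (chr17:56277476-56292873, minus strand), a perilipin that moves between cytosol and new droplets, was the most even of the family outside tumors. Its normalized counts were 849, 1259 and 1062 in nonDEN L-CD, 802, 1124, 987 and 939 after western diet alone and 828, 805, 806 and 833 after DEN alone. Peritumoral libraries had a lowest, median and highest count of 842, 1022 and 1155, and tumors of 1269.9, 1463 and 1692. Every tumor library lay above all 19 non-tumor libraries.

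*Plin2* accounted for between 88.1% ± 2.90 (SD, n = 8, DEN PT-WD) and 91.7% ± 1.61 (n = 3, nonDEN L-CD) of the summed perilipin TPM. Within the remainder, *Plin5* exceeded *Plin3* in nonDEN L-CD, at 4.79% ± 0.879 against 3.02% ± 0.717. In DEN T-WD the order was the other way, with *Plin5* at 1.87% ± 1.06 and *Plin3* at 7.20% ± 3.90 (n = 6). *Plin4* was largest in DEN PT-WD, at 2.16% ± 0.619.

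Lipolysis. *Pnpla2* (chr7:141455198-141460743, plus strand), which encodes ATGL, varied little. Its mean normalized count ran from 1775 ± 193 (SD, n = 3) in nonDEN L-CD through 1537 ± 163 (n = 4) in nonDEN L-WD, 1465 ± 330.0 (n = 8) in DEN PT-WD and 1434 ± 72.3 (n = 4) in DEN L-CD to 1318 ± 257 (n = 6) in DEN T-WD. No neighboring pair in that order passed edgeR's quasi-likelihood test (adjusted p between 0.444 and 0.918), but its ends did, with DEN T-WD lower than nonDEN L-CD by a log2 fold change of -0.43 ± 0.17 (SE, adjusted p = 0.0338).

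*Abhd5* (chr9:122351608-122381524, plus strand), which encodes CGI-58, the coactivator of ATGL, was level outside tumors. Its normalized counts were 1176, 1180.0 and 797 in nonDEN L-CD, 833, 987, 823 and 995 after western diet alone and 770.1, 824, 947 and 987 after DEN alone. Peritumoral libraries had a lowest, median and highest count of 721, 1008 and 1433, and tumors of 983, 2078 and 2677. In the tumors, 5 of 6 libraries lay above every other library of the study, and the sixth was replicate 5, the library lowest in *Alb*.

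*G0s2* (chr1:193272161-193273217, minus strand), the inhibitor of ATGL, was highest in nonDEN L-CD, where its normalized counts of 4901, 2664 and 1686 were also the most scattered. They were 1773, 2035, 1764 and 869 in nonDEN L-WD, then 1753, 1889, 1011 and 1602 in DEN L-CD. The lowest, median and highest peritumoral counts were 809, 1371 and 1920.3, and those of tumors 450.4, 775 and 1373. All 6 tumor libraries lay below the 3 libraries of nonDEN L-CD but overlapped the other groups. *G0s2* lies within *Lamb3* on the other strand, and *Abhd5* shares 950 bases with *A730085K08Rik*, which had a mean of at most 0.045 TPM in any group.

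The ratio of the inhibitor to the coactivator within a library is independent of the scaling between libraries. There were 7.70 ± 3.10 TPM of *G0s2* per TPM of *Abhd5* (SD, n = 3) in nonDEN L-CD, 4.52 ± 1.504 (n = 4) in nonDEN L-WD, 4.51 ± 1.42 (n = 4) in DEN L-CD, 3.43 ± 0.653 (n = 8) in peritumoral liver and 1.04 ± 0.326 (n = 6) in tumors. The highest tumor ratio of 1.49 was below the lowest ratio of any other group, 2.27 in nonDEN L-WD. *Abhd5* per *Pnpla2* was 0.656 ± 0.249 in peritumoral liver and 1.46 ± 0.579 in tumors, where replicate 5 alone, at 0.479, lay below the 1.05 that was the highest value outside tumors. These ratios were not tested.

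**Figure D2:**
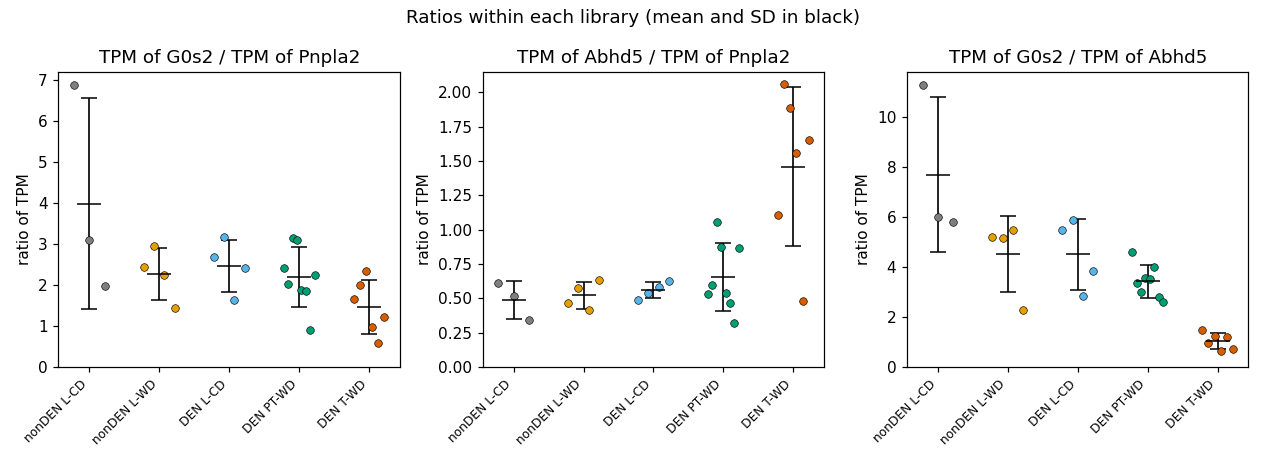
Ratios of TPM within each library (1 point per library, mean and SD in black) for *G0s2* over *Pnpla2*, *Abhd5* over *Pnpla2* and *G0s2* over *Abhd5* in the 5 groups. The *G0s2* to *Abhd5* ratio of the 6 tumors lies between 0.63 and 1.49, below the 19 other libraries.

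Western diet without DEN. Comparing nonDEN L-WD with nonDEN L-CD asks what the diet alone did to these genes, and 1 gene was called higher and 1 lower. *Cidea* rose by 5.82 ± 1.12 on the log2 scale (SE, 56.5-fold, adjusted p = 0.00089, edgeR's quasi-likelihood test) and *Plin5* fell by 1.09 ± 0.19 (adjusted p = 0.00029). Of all genes, 5.28% were called and 23.2% had an adjusted p of at most 0.05, against 2 of the 10 droplet genes on either count. Values that did not pass were a log2 fold change of 0.91 ± 0.49 for *Cidec* (adjusted p = 0.191), 0.90 ± 0.38 for *Plin4* (adjusted p = 0.0867), -0.94 ± 0.36 for *G0s2* (adjusted p = 0.0622) and -0.75 ± 0.34 for *Plin2* (adjusted p = 0.118). The median over the 10 genes was -0.17, and over all genes 0.013. Without nonDEN L-CD replicate 2, the log2 fold change of *Cidea* was 7.82 and *Cidec* was also called, at 1.93 (adjusted p = 0.0171). Without nonDEN L-CD replicate 3, *G0s2* was called lower, at -1.23 (adjusted p = 0.0287). Among 14 alternative settings, *G0s2* passed in 3, *Plin2* in 2, and *Plin4* and *Cidec* in 1 each.

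*Cidea* and *Plin4* are also adipocyte transcripts, so markers of fat cells are given beside them. *Adipoq*, the adipocyte hormone, was at 0.11 to 0.66 TPM in nonDEN L-CD, 0.51 to 3.38 TPM in nonDEN L-WD and 1.29 to 3.67 TPM in DEN L-CD, and *Plin1*, the adipocyte perilipin, reached at most 2.23 TPM in any library. The summed level of the 8 adipocyte markers was 17.2 to 33.7 TPM in nonDEN L-CD, against 60.4 to 111 TPM in nonDEN L-WD, most of it *Fabp4* and *Cfd*. In DEN L-CD the sum was 40.3 to 59.4 TPM, also above nonDEN L-CD without overlap. *Cfd* and *Lep* were the 2 of 7 tested markers called higher under the western diet, *Cfd* was the 1 called higher in DEN L-CD and in DEN PT-WD against nonDEN L-CD, and it was the 1 called lower in tumors against peritumoral liver, where *Plin4* fell. *Fabp4* rose in that comparison (0.62 ± 0.19 on the log2 scale, adjusted p = 0.0132, edgeR's quasi-likelihood test), and the sum of the 8 markers had a median of 102 TPM in peritumoral liver and 94.9 TPM in tumors. The median log2 fold change of the 7 tested markers in that comparison was -0.85. *Cfd* had a median of 47.9 TPM in peritumoral liver and 19.0 TPM in tumors, and *Fabp4* had 44.5 and 75.3 TPM. *Ucp1* and *Lep* were at 0 in all nonDEN L-CD libraries. *Cidea* itself ranged from 0.18 to 2.27 TPM in nonDEN L-CD, from 6.82 to 14.2 TPM in DEN L-CD and from 28.7 to 84.6 TPM in nonDEN L-WD. The part of adipocyte RNA in the *Cidea* and *Plin4* differences was not tested.

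**Figure D3:**
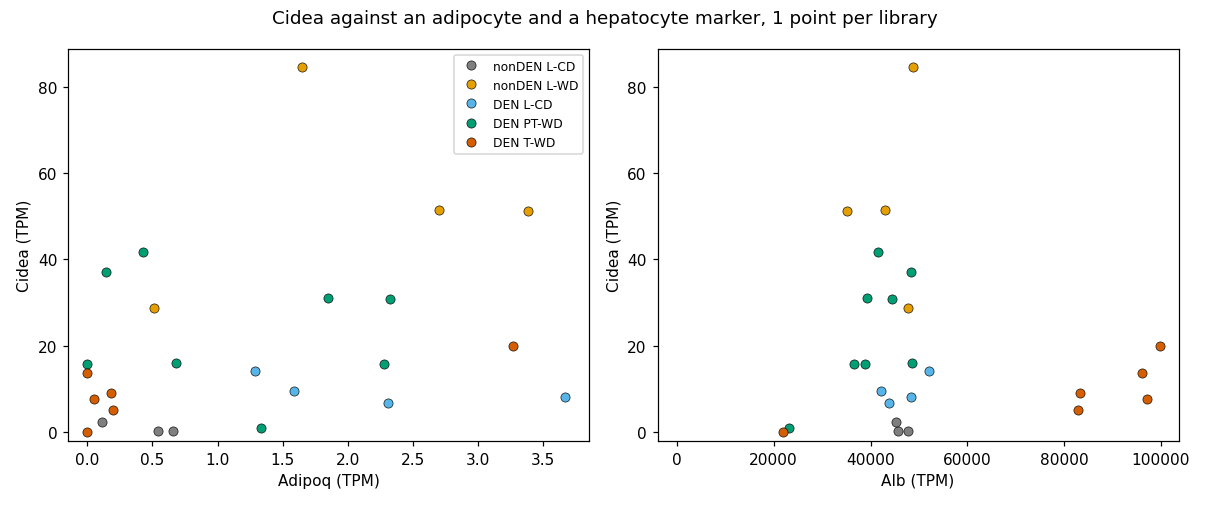
*Cidea* in TPM against the adipocyte marker *Adipoq* (left) and the hepatocyte marker *Alb* (right), both in TPM, with 1 point per library colored by group. The 4 nonDEN L-WD libraries have 28.7 to 84.6 TPM of *Cidea* at 0.51 to 3.38 TPM of *Adipoq*, and the libraries lowest in *Alb* among peritumoral livers and tumors have 0.9 and 0.14 TPM of *Cidea*.

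DEN on the control diet. Comparing DEN L-CD with nonDEN L-CD asks what DEN left behind in liver without the western diet, and the same pair of genes was called. Per the study, any tumors in these mice could not be dissected away because of their size, so DEN itself and small tumors within the tissue cannot be told apart here. *Cidea* rose by 3.44 ± 1.08 (SE, log2 scale, 10.8-fold, adjusted p = 0.0262, edgeR's quasi-likelihood test), *Plin5* fell by 1.14 ± 0.19 (adjusted p = 0.0002) and *Plin3* fell by 0.37 ± 0.13 (adjusted p = 0.0416). In this comparison 4.7% of all genes were called and 21.3% had an adjusted p of at most 0.05, against 2 and 3 of the 10. *G0s2*, at -0.98 ± 0.36 (adjusted p = 0.0545), and *Plin2*, at -0.83 ± 0.34 (adjusted p = 0.0865), had values close to those under the western diet, and *Cidec* was at -0.44 ± 0.48 (adjusted p = 0.549). Both comparisons use the same 3 nonDEN L-CD libraries, so their values are not independent. *Cidea* did not pass without nonDEN L-CD replicate 1 (2.96, adjusted p = 0.0883), nonDEN L-CD replicate 3 (2.99, adjusted p = 0.106) or DEN L-CD replicate 2 (3.21, adjusted p = 0.0579), while without nonDEN L-CD replicate 2 it was at 5.44. Also without nonDEN L-CD replicate 3, *G0s2* was called lower (-1.28, adjusted p = 0.0249), and *Plin3* lost its pass in 6 of the 7 fits that left out 1 library. Over all 14 alternative settings, *G0s2* passed in 3, *Plin2* in 2 and *Pnpla2* in 1.

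Peritumoral liver against the single exposures. Against nonDEN L-WD, DEN PT-WD showed no call among the 10 genes, where 2.76% of all genes were called and 12.4% had an adjusted p of at most 0.05. *Cideb* alone passed on p and fell by 0.45 ± 0.09 (SE, log2 scale, adjusted p = 0.00413, edgeR's quasi-likelihood test), with no overlap between the groups. *Cidea* was at -1.42 ± 0.62 (adjusted p = 0.127), also with no overlap, and *Plin5* at -0.40 ± 0.15 (adjusted p = 0.0798). DESeq2's Wald test called 0 of the 10 genes. With limma on log2(TPM + 1), *Cideb* was at -0.23 and did not pass (adjusted p = 0.0762). In a fit without the *Alb*-poorest library of DEN PT-WD and of DEN T-WD, chosen after seeing the data, the spread of *Cidea* was smaller and it was called lower in DEN PT-WD (-1.23 ± 0.37, adjusted p = 0.0284).

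Against DEN L-CD, 1 gene was called in DEN PT-WD: *Plin4* rose by 1.25 ± 0.31 (SE, log2 scale, 2.39-fold, adjusted p = 0.0145, edgeR's quasi-likelihood test). In this comparison 1.9% of all genes were called and 10.6% had an adjusted p of at most 0.05. *Cidec*, at 1.05 ± 0.41 (adjusted p = 0.0969), and *Plin3*, at 0.30 ± 0.10 (adjusted p = 0.0634), did not pass, although every DEN PT-WD library lay above every DEN L-CD library for *Plin3*. Among 19 alternative settings, *Plin3* passed in 5 and *Cidec* in 3. *Cidea* was at 0.96 ± 0.69 (adjusted p = 0.381). *Plin4* did not pass without DEN L-CD replicate 3 (1.17, adjusted p = 0.0577), and *Cidec* was called by DESeq2's Wald test (1.03, adjusted p = 0.0463).

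DEN and western diet combined. DEN PT-WD against nonDEN L-CD gave the most calls, 5 of the 10, where 13.3% of all genes were called and 45.3% had an adjusted p of at most 0.05. *Cidea* rose by 4.40 ± 1.05 (SE, log2 scale, 21.2-fold, adjusted p = 0.00169, edgeR's quasi-likelihood test) and *Plin4* by 1.06 ± 0.35 (adjusted p = 0.0169). *Plin5* fell by 1.49 ± 0.16 (adjusted p = 2.88e-07), *G0s2* fell by 1.18 ± 0.31 (adjusted p = 0.00324) and *Plin2* fell by 1.07 ± 0.29 (adjusted p = 0.00471). *Plin5* and *Plin2* had no overlap between the groups. *Plin4* did not pass without nonDEN L-CD replicate 1 (0.88, adjusted p = 0.0927) or replicate 3 (1.00, adjusted p = 0.0674), and *G0s2* not without replicate 1 (-0.71, adjusted p = 0.0905) nor with limma on log2(TPM + 1) (-0.73, adjusted p = 0.0789). The calls of *Plin2* and *Plin4* lay close to 2-fold. *Plin2* still passed but was under 2-fold with limma (-0.77), without nonDEN L-CD replicate 2 (-0.93), without DEN PT-WD replicate 7 (-0.97) and without the *Alb*-poorest library of peritumoral liver and of tumors (-0.97, adjusted p = 0.00122), as was *Plin4* without DEN PT-WD replicate 2 (0.98) or replicate 5 (0.91). *Cidec* was at 0.61 ± 0.44 (adjusted p = 0.272) and passed in 2 of 18 alternative settings. Without nonDEN L-CD replicate 2, *Cidec* was called (1.62, adjusted p = 0.0130) and *Cidea* was at 6.40.

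The interaction, the diet difference after DEN minus that without DEN, was called for *Cidea* alone among the 10 genes, at -4.86 ± 1.25 (SE, log2 scale, adjusted p = 0.0189, edgeR's quasi-likelihood test). The diet difference in *Cidea* was thus smaller after DEN, 0.96 against 5.82 on the log2 scale. Of all genes, 2.75% were called for the interaction and 8.39% had an adjusted p of at most 0.05. *Plin5* (0.74 ± 0.24, adjusted p = 0.0581) and *Cideb* (-0.43 ± 0.15, adjusted p = 0.0737) came closest among the others. Among 26 alternative settings, *Plin5* passed in 5, and *Cideb* and *Plin3* in 2 each. The *Cidea* interaction did not pass without nonDEN L-CD replicate 3 (-4.41, adjusted p = 0.0742) and was at -6.85 without replicate 2.

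Tumor against peritumoral liver. In DEN T-WD 6 of the 10 genes had an adjusted p of at most 0.05 against DEN PT-WD, where 37.7% of all genes did, and 1 was called, where 7.9% of all genes were. *Plin4* fell by 1.17 ± 0.27 (SE, log2 scale, 0.445-fold, adjusted p = 0.00157, edgeR's quasi-likelihood test), *Plin5* fell by 0.65 ± 0.14 (adjusted p = 0.00073), *G0s2* fell by 0.74 ± 0.26 (adjusted p = 0.0298) and *Cideb* fell by 0.33 ± 0.08 (adjusted p = 0.00283). *Abhd5* rose by 0.95 ± 0.17 (1.93-fold, adjusted p = 0.00013) and *Plin3* rose by 0.54 ± 0.09 (adjusted p = 6.59e-05). *Cidea* was at -1.42 ± 0.60 (adjusted p = 0.0667), *Plin2* at 0.47 ± 0.24 (adjusted p = 0.129), *Cidec* at -0.38 ± 0.34 (adjusted p = 0.409) and *Pnpla2* at -0.15 ± 0.13 (adjusted p = 0.382).

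For *Plin3* the tumor and peritumoral libraries did not overlap. Hepatocyte markers moved within this comparison: the summed level of the 8 was 31688 TPM in the tumor replicate 5 and had a median of 122533 TPM over the 6 tumors, against a median of 61161 TPM in DEN PT-WD, and *Apoa1* was called higher and *Cyp2e1* lower. *Alb* alone had a median of 89681 TPM in tumors and 40458 TPM in DEN PT-WD. On adjusted p, 3 of the 8 markers passed higher and 3 lower, where 37.7% of all genes passed. The median log2 fold change of the 8 was -0.20. Without the *Alb*-poorest library of each of these groups, *Plin4*, *Abhd5* (1.02 ± 0.13, adjusted p = 3.56e-06) and *Cidea* (-1.34 ± 0.38, adjusted p = 0.00778) were called, and *Plin2* passed on p (0.53 ± 0.20, adjusted p = 0.0334). *G0s2* did not pass in 5 of the 14 fits that left out 1 library, with adjusted p from 0.0545 to 0.0746 in those 5. With limma on log2(TPM + 1), *Plin4* was under 2-fold (-0.88), *Abhd5* was called (1.07), and neither *G0s2* (adjusted p = 0.0612) nor *Cideb* (-0.20, adjusted p = 0.0639) passed.

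**Figure D4:**
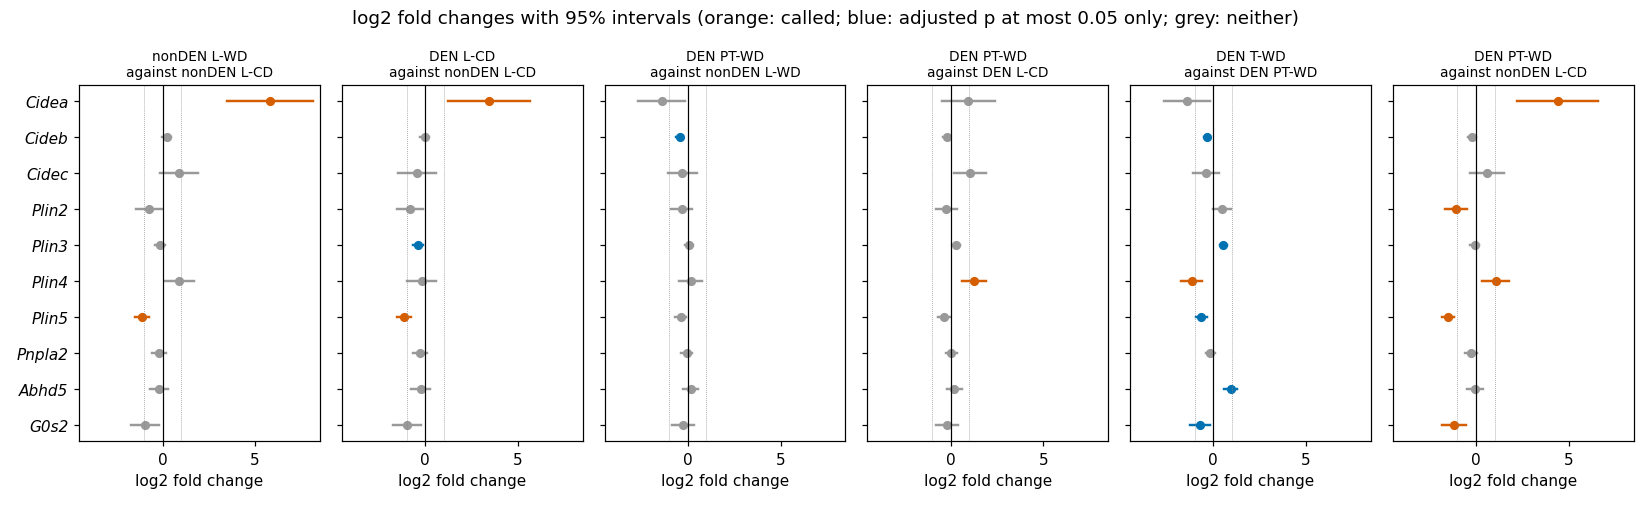
The log2 fold change of each gene with its 95% interval in the 6 pairwise comparisons, orange where called, blue where the adjusted p alone was at most 0.05 and grey otherwise, with dotted lines at a 2-fold change. *Cidea* has the widest intervals, *Plin5* is called in the 3 comparisons with nonDEN L-CD, and tumor against peritumoral liver has the most genes past the adjusted p.

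Across all groups, *Plin5* had a mean normalized count of 1529 ± 77.1 (SD, n = 3) without either exposure, and went through 717 ± 86.8 (n = 4) in nonDEN L-WD, 695 ± 75.0 (n = 4) in DEN L-CD and 546 ± 120.1 (n = 8) in DEN PT-WD to 348 ± 65.3 (n = 6) in DEN T-WD. The first and last steps of this order passed edgeR's quasi-likelihood test (adjusted p = 0.00029 and 0.00073), and the middle steps did not (adjusted p = 0.954 and 0.13). From end to end it fell by 2.13 ± 0.17 on the log2 scale, to 0.228 of the nonDEN L-CD level. *Abhd5* and *Plin3* had DEN T-WD first, and its step to the next group, nonDEN L-CD, passed for both (adjusted p = 0.00221 and 0.00212). The median log2 fold change of the 10 genes was -0.34 for DEN on the control diet, -0.27 and 0.12 for peritumoral liver against nonDEN L-WD and DEN L-CD, -0.15 for both exposures and 0.38 for the interaction, where the median of all genes was between 0.003 and 0.041. In the order of *Cidea*, the step from DEN T-WD at 169 to nonDEN L-CD at 21.1 normalized counts was the one that passed (adjusted p = 0.0189).

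Within groups, some pairs of these genes varied together, others did not, and some varied in opposite directions. Over deviations from the group means in 25 libraries, the highest correlation among the 45 pairs was that of *Cidea* with *Plin2* (r = 0.850), which across the libraries themselves was 0.086, followed by *Cidec* with *Plin3* (r = 0.771) and *Cidec* with *Plin4* (r = 0.695). The lowest was that of *Pnpla2* with *Abhd5* (r = -0.588). The libraries lowest in *Alb* were low in both *Cidea* and *Plin2* and low in *Abhd5* for their groups. All points share the libraries' depth and tissue makeup, whose part in these correlations was not tested.

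Outside the 10 genes, the tested genes most like *Cidea* over 25 libraries were *B430212C06Rik* (r = 0.927 in log2 CPM), *Fabp2*, an intestinal-type fatty acid binding protein (r = 0.914), and *Gpc1*, a glypican (r = 0.911). *B430212C06Rik* lies on the other strand and overlaps the start of *Cidea* by 500 bases, though no 50-base word of *Cidea* occurs in its transcripts, and its normalized count was 0.383 ± 0.664 (SD, n = 3) in nonDEN L-CD, against 128 ± 49.0 (n = 4) after western diet. For *Cidec* they were *Trappc12* (r = 0.768), *Pcx*, which encodes pyruvate carboxylase (r = 0.759), and *Cfap54* (r = 0.751). For *Plin4* they were *Pcx* (r = 0.843), *Adgrg2* (r = 0.806) and *Aldh3a2*, a fatty aldehyde dehydrogenase (r = 0.804). For *Plin2* they were *Mmadhc* (r = 0.864), *Rab1a* (r = 0.847) and *Uso1* (r = 0.845), of which *Rab1a* and *Uso1* act in transport from the endoplasmic reticulum to the Golgi.

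Other droplet genes were taken from 3 lists of 12 coat, growth and shape proteins, 8 lipases and cofactors, and 6 regulators. On the western diet without DEN, 1 of 12, 1 of 8 and 2 of 6 were called, all higher, where 5.28% of all genes were called, so that 1 call in a list of 12 or 8 is near the share of all genes. They were *Fitm1*, a protein of droplet formation (log2 fold change 1.07 ± 0.28), *Ces1d*, a carboxylesterase that hydrolyzes triacylglycerol (1.08 ± 0.26), *Pparg*, a nuclear receptor of fat storage (2.02 ± 0.29), and *Srebf1*, the regulator of fatty acid synthesis (2.43 ± 0.41). After DEN on the control diet the same numbers were called, again all higher and beside 4.7% of all genes, namely *Cav1*, the caveolar coat protein (1.63 ± 0.42), *Ces1d* (1.45 ± 0.26), *Pparg* (1.48 ± 0.29) and *Srebf1* (2.03 ± 0.40).

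*Pparg*, *Srebf1* and *Ces1d*, like *Cidea*, were called in these comparisons with nonDEN L-CD and in the interaction. The normalized count of *Pparg* averaged 135 ± 33.1 (SD, n = 3) without either exposure, 547 ± 167 (n = 4) in nonDEN L-WD, 376 ± 79.5 (n = 4) in DEN L-CD, 614 ± 161 (n = 8) in peritumoral liver and 439.6 ± 109 (n = 6) in tumors. That of *Srebf1* averaged 1124, 6045, 4578, 7075 and 4829 in the same order, and that of *Ces1d* 5797, 12254, 15821, 14558 and 6473. In the combined comparison, where 13.3% of all genes were called, *Ces1d* (1.33 ± 0.24), *Pnpla3*, a lipase homolog of hepatocytes (2.22 ± 0.88), *Pparg* (2.19 ± 0.28) and *Srebf1* (2.65 ± 0.39) were called higher. No gene of the 3 lists was called in DEN PT-WD against nonDEN L-WD or against DEN L-CD.

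In tumors against peritumoral liver 1 of 12 was called higher and 1 lower, 1 of 8 higher and 1 lower, and 0 of 6, beside 7.9% of all genes. *Hilpda*, a droplet protein that also inhibits ATGL, rose by 1.04 ± 0.21 and *Pnpla3* rose by 1.67 ± 0.55, while *Fitm1* fell by 1.12 ± 0.20 and *Ces1d* fell by 1.17 ± 0.18. On adjusted p alone, which 37.7% of all genes passed, 8 of 12 coat, growth and shape proteins passed, 4 in each direction, and 7 of 8 lipases and cofactors passed, of which 6 fell, among them *Mgll*, the monoacylglycerol lipase (fell by 0.96 ± 0.17), *Lipe*, the hormone-sensitive lipase (fell by 0.43 ± 0.11), and *Abhd6* (fell by 0.88 ± 0.14). *Ppara* was the 1 of 6 regulators to pass and fell by 0.38 ± 0.15. The median log2 fold change was -0.05, -0.53 and -0.42 for the 3 lists, beside -0.36 for the 10 droplet genes and 0.010 for all genes.

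Markers of other cells stood beside these results as follows. The summed TPM of 8 macrophage markers had a median of 205 in nonDEN L-CD, 233 after western diet alone, 227 after DEN alone, 534 in peritumoral liver and 471 in tumors. For 8 stellate cell markers the medians were 167, 207, 201, 321 and 278 in the same order. *Gpnmb* and *Trem2* of the macrophage list and *Col1a1* and *Col3a1* of the stellate list were called higher after western diet alone, and all 4 again in peritumoral liver against either control-diet group. In peritumoral liver against nonDEN L-WD, where *Cideb* fell, *Gpnmb* and *Trem2* were called higher, and 5 of 8 macrophage and 4 of 8 stellate markers passed, all of them higher. In tumors against peritumoral liver *Clec4f* and *Marco*, markers of resident macrophages, were called lower, and 6 of 8 stellate markers passed, 3 in each direction. Exocrine pancreas markers summed to 0.25 to 5124 TPM over the 25 libraries, with wide ranges inside every group. The part of these cells in the results was not tested.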

How the data were processed

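The authors checked reads with FastQC, aligned them to GRCm38 with STAR and counted them with RSEM (which STAR and RSEM versions, annotation and strand setting were used is not given in the sources used here). The deposited expected count of RSEM is a raw estimate that can be fractional, the deposited TPM is length-corrected and sums to the same total in every library, and the deposited FPKM by the authors is scaled to length and depth. Libraries were polyadenylated RNA read from 1 end, with totals of 21530083 to 38074411.

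After rounding, expected counts went into edgeR 4.0.16 under R 4.3.3 (quasi-likelihood, TMM, filterByExpr with a minimum count of 10, 1 fit of the 5 groups). 15625 genes were tested, and an adjusted p of at most 0.05 with a log2 fold change of at least 1 in size was called, the thresholds of the study. log2 CPM used a prior count of 2. Gene symbols and coordinates came from a GRCm38 annotation, and promoters from RefSeq (GRCm38.p6). The genes, lists and rules were chosen with earlier results of these data known. The text names all 10 genes, list genes called in any comparison, the 3 genes most correlated with each of *Cidea*, *Cidec*, *Plin2* and *Plin4*, and some list genes (*Mgll*, *Lipe*, *Abhd6* and *Ppara*) chosen after their values were seen.

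Alternatives were no filter on low counts, DESeq2 1.42.0 (Wald test), its size factors within edgeR, only the groups compared, a replicate block, limma 3.58.1 on log2(TPM + 1), each library left out, and 1 fit without a pair of libraries, chosen after seeing the data. Family shares were repeated with FPKM, which cannot differ from TPM shares within a library and tests nothing. The procedure was tested on simulated data. No 2 libraries of a group were alike within sampling noise, and nothing in the labels says that replicates are separate animals, so p-values measure only the spread between these samples. Groups and replicate numbers came from the sample titles.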

Additional observations from a re-analysis of the deposited data

Results flagged for a closer look

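*Cidec* in DEN L-CD replicate 2 had a normalized count of 921 where the nearest other library of the group had 624, a gap of 0.934 of the group's range. It was the single library past the limit of 0.829 for 4 libraries, or that for 6 or 8, among 40 combinations of gene and group, and chance flags about 5% of them. The 3 libraries of nonDEN L-CD were too few for this check, and there *Cidea* had 52.9 in replicate 2 beside 4.68 and 5.73.

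Among the 10 droplet genes and the 3 lists of 12, 8 and 6 related genes, 6 were called for a diet difference that differed between DEN-treated and untreated mice by the interaction term of edgeR's quasi-likelihood test. *Cidea* had an interaction of -4.86 on the log2 scale (adjusted p = 0.0189), *Cav1* -1.83 (adjusted p = 0.0304), *Ces1d* -1.20 (adjusted p = 0.0235), *Fitm1* -1.24 (adjusted p = 0.0297), *Pparg* -1.31 (adjusted p = 0.0255) and *Srebf1* -1.80 (adjusted p = 0.0257). Of all genes tested, 2.75% were called for this term, 245 of them positive and 185 negative. The 6 values above are all negative, and in each the DEN-treated liver on the western diet was peritumoral, so that position beside a tumor and DEN cannot be told apart. The nonDEN L-CD libraries enter this term with a positive sign, so a low value in them lowers it. Against these libraries *Cidea*, *Ces1d*, *Pparg* and *Srebf1* were called higher under either single exposure, *Fitm1* under the western diet and *Cav1* after DEN. The shared sign is therefore not independent of those calls.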

How the results depend on the processing

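In the 7 comparisons rerun, the 19 member results past an adjusted p of 0.05 kept their sign in every setting tried. Tumors against nonDEN L-CD, nonDEN L-WD or DEN L-CD, used for the order of the groups, were fitted once and no alternative was run for them. With 1 library left out, 198 of 217 refitted values stayed past the threshold, and in the other settings 125 of 133 did, the exceptions falling on 7 and 6 results. For the 51 member results that had not passed, 14 of 603 values refitted without 1 library passed with the same sign, on 13 results. In the other settings 31 of 357 such values did, on 17 results. The number of the 10 genes called under the western diet without DEN was 1 with limma on log2(TPM + 1), against 2. In DEN PT-WD against DEN L-CD it was 2 with only the groups compared, with DESeq2's Wald test and with limma, against 1. Without the *Alb*-poorest library of peritumoral liver and of tumors, chosen after seeing the data, it was 1 against nonDEN L-WD, against 0, 3 in tumors against peritumoral liver, against 1, and 4 in DEN PT-WD against nonDEN L-CD, against 5, with *Plin2* under 2-fold. With 1 library left out the counts ran from 2 to 3 under the western diet without DEN (*Cidec* added without nonDEN L-CD replicate 2, *G0s2* without replicate 3), 1 to 2 for DEN on the control diet, 0 to 1 in DEN PT-WD compared with DEN L-CD, 1 to 2 for tumors against peritumoral liver, 3 to 5 for DEN PT-WD against nonDEN L-CD and 0 to 1 for the interaction. In tumors, *Cidea* was the added call without DEN PT-WD replicate 7 or DEN T-WD replicate 3, and *Abhd5* without DEN PT-WD replicate 4 or DEN T-WD replicate 5. The causes were not tested.

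Libraries with the same replicate number did not deviate together throughout (r from -0.23 to 0.388), so the numbers were not taken as pairs. With the replicate number as a block, 2 genes were called in tumors against peritumoral liver (*Plin4* and *Cidea*) and 3 in DEN PT-WD against nonDEN L-CD (*Plin4*, *Plin5* and *Cidea*), where *Plin2* (-0.78, adjusted p = 0.0683) and *G0s2* (-0.72, adjusted p = 0.0980) no longer passed. The block turned the log2 fold change of *G0s2* to 0.10 in DEN PT-WD against nonDEN L-WD and 0.12 against DEN L-CD, *Plin2* to 0.062 and *Pnpla2* to -0.093 against DEN L-CD, and *Abhd5* to 0.074 against nonDEN L-CD.

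Every other value that changed sign was one that had not passed. limma on log2(TPM + 1), where the median of all genes shifts by up to 0.240, gave 0.029 for *Abhd5* under the western diet, 0.016 for *Cideb* and 0.065 for *Cidec* after DEN on the control diet, 0.013 for *G0s2* and 0.094 for *Pnpla2* in DEN PT-WD against nonDEN L-WD, 0.094 for *Cideb* and 0.10 for *G0s2* against DEN L-CD, 0.11 for *Cideb*, 0.28 for *Plin3*, 0.012 for *Pnpla2* and 0.37 for *Abhd5* against nonDEN L-CD, and -0.20 for *Cidec* in the interaction. Without the *Alb*-poorest libraries *Pnpla2* was at -0.060 against DEN L-CD and *Abhd5* at 0.0098 against nonDEN L-CD. With 1 library left out, *Plin3* ran from -0.29 to 0.012 under the western diet, from -0.012 to 0.15 in DEN PT-WD against nonDEN L-WD and from -0.23 to 0.078 against nonDEN L-CD. After DEN on the control diet *Cideb* ran from -0.043 to 0.012, *Cidec* from -0.92 to 0.57 and *Plin4* from -0.36 to 0.038. *Pnpla2* ran from -0.16 to 0.00035 against nonDEN L-WD and from -0.060 to 0.10 against DEN L-CD, *Abhd5* from -0.22 to 0.042 against nonDEN L-CD, and *Cidec* from -0.88 to 0.61 in the interaction.

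Over all genes, limma on TPM called 300.0 against 825 under the western diet, 234 against 734 after DEN, 206 against 432 and 180.0 against 297 in DEN PT-WD against nonDEN L-WD and DEN L-CD, 539 against 1235 in tumors, 973 against 2077 for both exposures and 240.0 against 430.0 for the interaction. Leaving out 1 library moved the all-gene count by over 1.5 times without nonDEN L-CD replicate 2 (507 under the western diet, 430.0 after DEN, 232 for the interaction), nonDEN L-CD replicate 3 (258 for the interaction), nonDEN L-WD replicate 4 (201 in DEN PT-WD against nonDEN L-WD) and DEN L-CD replicate 3 (173 in DEN PT-WD against DEN L-CD). Without nonDEN L-CD replicate 2, the log2 fold change of *Cidea* rose from 5.82 to 7.82, from 3.44 to 5.44 and from 4.40 to 6.40 for western diet, DEN and both. At 4 expected counts in the lowest control library, the size of the *Cidea* fold change against nonDEN L-CD is poorly fixed.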
